A study of Homo sapiens with 6 samples.

Results

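Cancer-testis antigen genes were examined in U87, a human glioma line in long use, as 44 of the 18132 genes that had a probe set of their own on the array. The rule reads gene names and no expression value, although these families were picked with earlier results of these data known: all genes that were the sole gene of at least 1 probe set in the platform annotation and whose symbol belonged to the MAGEA, MAGEB, MAGEC, GAGE, PAGE, XAGE, SSX, CSAG, VCX, CT45, CT47, CTAG or SPANX families, and PASD1. The 44 genes held 6 of MAGEA, 8 of MAGEB, 3 of MAGEC, 1 of GAGE, 4 of PAGE, 3 of XAGE, 5 of SSX, 6 of SPANX, 2 of VCX, and 1 each of CSAG and CTAG, besides PASD1. Of all 44, 41 lay on chromosome X. The other 3 lie outside these families and matched the rule by the spelling of their symbols. They are autosomal: CTAGE1 on chromosome 18, CTAGE3P on chromosome 13 and SSX2IP on chromosome 1. SSX2IP encodes a protein that binds SSX2. CT45 and CT47 had no probe set with 1 symbol, because near-identical copies share their probe sets. SPANXB1 was left out because the annotation lists it under more than 1 entry.

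The cells carried a stably integrated plasmid that was empty (control), coded for full-length human IL-33, or coded for IL-33 without its nuclear localization signal (ΔNLS, spelled IL33 DNLS in the labels). IL-33, an IL-1 family cytokine, also binds chromatin inside the nucleus. All groups, the control included, were selected and kept in the antibiotic G418. There were 6 Affymetrix PrimeView arrays: 1 of the control, 3 of IL-33 clones (numbered 3, 5 and 9) and 2 of ΔNLS clones (numbered 3 and 4). Each clone descends from its own transfected cell, so that differences between clones hold the construct and whatever else set a clone apart. The control is 1 array, which is not described as a clone, and the fit assumed that it varies as the clones do. The labels do not say that the clones' RNA came from separate cultures or runs, so p-values measure the spread between these arrays, which may be technical. Below, values of the clones are listed in the order of these numbers.

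Cancer-testis antigens are proteins made in male germ cells and trophoblast and, in many tumors, in the tumor cells. Most of their genes lie in clusters of near-identical copies on chromosome X. In somatic cells their promoters are kept silent, in large part by methylation of CpG dinucleotides, and loss of that methylation is a well-known route by which tumor cells come to express them. Because the testis shows little MHC class I, T cells can treat these proteins as foreign, and MAGEA, CTAG and GAGE proteins have been used as vaccine and T-cell targets. MAGE proteins share a MAGE homology domain through which they bind and direct RING E3 ubiquitin ligases.

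Signals are log2 values, and a signal under 4.8 was treated as background, a level near the 95th percentile of 333 olfactory receptor genes (4.81). The array medians were 5.61 to 5.62 for control and IL-33 and 5.43 for both ΔNLS arrays. Of all genes, 64.5% to 65.3% reached background on the former and 61.8% and 62.2% on the latter. The ΔNLS construct and this difference between arrays cannot be told apart. Over all genes the median difference of ΔNLS from control was −0.09 (log2). Setting all array medians equal moved it by 0.19, to 0.09, and the share of higher genes among those called from 38.6% to 60.0%. Quantile normalization gave a median of 0.05 and a share of 54.8%. The transfected gene, IL33, was at 3.46 in the control, at 8.38, 6.397 and 9.50 with IL-33, and at 6.503 and 6.62 with ΔNLS. Its differences from control, 4.63 with IL-33 and 3.10 with ΔNLS, did not pass (limma adjusted p of 0.0575 and 0.0774). A difference that did not pass is thus not shown to be absent. Where its probes lie in the transfected cDNA is not given in the sources used here. Of 5 genes of a mesenchymal glioma line (VIM, CD44, NES, TNC and CHI3L1) 5 were above background on all arrays, but their levels were not all steady. CHI3L1 gave 10.41 in the control, 9.49, 4.87 and 9.64 in the IL-33 clones, and 9.00 and 8.21 in the ΔNLS clones. NES gave 7.28 in the control, 5.73, 5.89 and 5.12 in the IL-33 clones, and 8.10 and 8.09 in the ΔNLS clones. Of 8 male germ cell genes 7 were below background on all arrays. The 1 exception, PRM1, a sperm protamine, was at 4.84 in the control, at 4.92 to 5.0003 with IL-33, and at 2.71 and 2.77 with ΔNLS. The mean of the 8 germ cell genes was 3.11 in the control, 3.16 to 3.21 in IL-33 and 2.80 to 2.90 in ΔNLS.

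The promoters of members that will be described are shown first, since CpG methylation is the usual brake on these genes. Each run is 300 bases of the gene's own strand, 250 before to 50 after the RefSeq start in GRCh38.p14, with each CpG in capitals. The first 5 belong to genes that were below background in the control and bright in the ΔNLS clones. MAGEA12 and SSX5 stayed below background and were picked for contrast after their values were seen.
MAGEC1: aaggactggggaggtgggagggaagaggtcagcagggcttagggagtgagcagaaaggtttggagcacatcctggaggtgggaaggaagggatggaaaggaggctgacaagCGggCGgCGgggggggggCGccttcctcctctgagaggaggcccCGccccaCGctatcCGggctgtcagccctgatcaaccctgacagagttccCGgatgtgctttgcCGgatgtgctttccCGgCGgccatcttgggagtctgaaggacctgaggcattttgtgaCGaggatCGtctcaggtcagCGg
MAGEC2: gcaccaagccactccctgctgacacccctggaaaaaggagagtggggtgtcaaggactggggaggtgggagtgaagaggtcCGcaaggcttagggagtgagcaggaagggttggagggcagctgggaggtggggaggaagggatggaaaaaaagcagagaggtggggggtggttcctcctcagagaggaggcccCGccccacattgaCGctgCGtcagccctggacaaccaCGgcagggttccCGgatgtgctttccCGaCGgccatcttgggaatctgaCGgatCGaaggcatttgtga
PAGE1: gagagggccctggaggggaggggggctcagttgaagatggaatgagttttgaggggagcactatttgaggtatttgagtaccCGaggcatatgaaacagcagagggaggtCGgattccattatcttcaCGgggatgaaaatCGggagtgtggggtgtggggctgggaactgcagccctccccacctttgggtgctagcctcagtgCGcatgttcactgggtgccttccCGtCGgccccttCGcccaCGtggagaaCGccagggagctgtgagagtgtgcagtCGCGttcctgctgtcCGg
PASD1: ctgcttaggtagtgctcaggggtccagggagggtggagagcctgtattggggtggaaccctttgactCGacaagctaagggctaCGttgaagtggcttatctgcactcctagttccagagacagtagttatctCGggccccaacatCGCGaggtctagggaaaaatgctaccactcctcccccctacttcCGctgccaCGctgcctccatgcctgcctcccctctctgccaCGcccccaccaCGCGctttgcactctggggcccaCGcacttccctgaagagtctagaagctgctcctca
VCX: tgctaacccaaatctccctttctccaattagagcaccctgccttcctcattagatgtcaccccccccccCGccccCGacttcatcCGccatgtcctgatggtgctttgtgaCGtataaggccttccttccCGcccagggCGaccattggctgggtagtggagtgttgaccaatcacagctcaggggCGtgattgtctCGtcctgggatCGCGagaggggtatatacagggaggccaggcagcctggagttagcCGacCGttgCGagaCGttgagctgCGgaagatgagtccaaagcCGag
MAGEA12: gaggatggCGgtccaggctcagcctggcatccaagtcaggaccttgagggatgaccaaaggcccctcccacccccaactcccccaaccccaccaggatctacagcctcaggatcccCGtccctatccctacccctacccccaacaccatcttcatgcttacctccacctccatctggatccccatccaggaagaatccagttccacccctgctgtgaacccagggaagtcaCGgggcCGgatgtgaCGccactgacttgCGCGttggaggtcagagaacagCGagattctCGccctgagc
SSX5: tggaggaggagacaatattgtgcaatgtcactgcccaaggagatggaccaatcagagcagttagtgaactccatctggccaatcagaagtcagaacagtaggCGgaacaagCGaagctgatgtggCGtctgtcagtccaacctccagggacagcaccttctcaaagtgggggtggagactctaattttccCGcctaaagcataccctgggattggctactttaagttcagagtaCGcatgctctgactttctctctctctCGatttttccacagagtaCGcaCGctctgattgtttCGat
The windows lie at chrX:141903644-141903943 (plus strand) for MAGEC1, chrX:142205241-142205540 (minus) for MAGEC2, chrX:49695935-49696234 (minus) for PAGE1, chrX:151563425-151563724 (plus) for PASD1, chrX:7842921-7843220 (plus) for VCX, chrX:152733507-152733806 (plus) for MAGEA12 and chrX:48196746-48197045 (minus) for SSX5. They hold 14, 10, 13, 11, 16, 9 and 9 CpGs in that order.

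Most members were below background in these cells. Of the 44, 26 stayed below background on all 6 arrays, with signals from 1.72 to 4.57, and 18 reached it on at least 1 array. On the control array 10 members (22.7%) were above background. In the IL-33 clones the number was 13, 12 and 14, and in the ΔNLS clones it was 15 and 16 (34.1% and 36.4%), although fewer of all genes reached background there. In 8 members the control was below background and at least 1 clone above it: MAGEA1, MAGEA11, MAGEC1, MAGEC2, PAGE1, PASD1, VCX and XAGE3. In whole-culture RNA a larger share of expressing cells and more RNA per cell cannot be told apart.

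**Figure D1:**
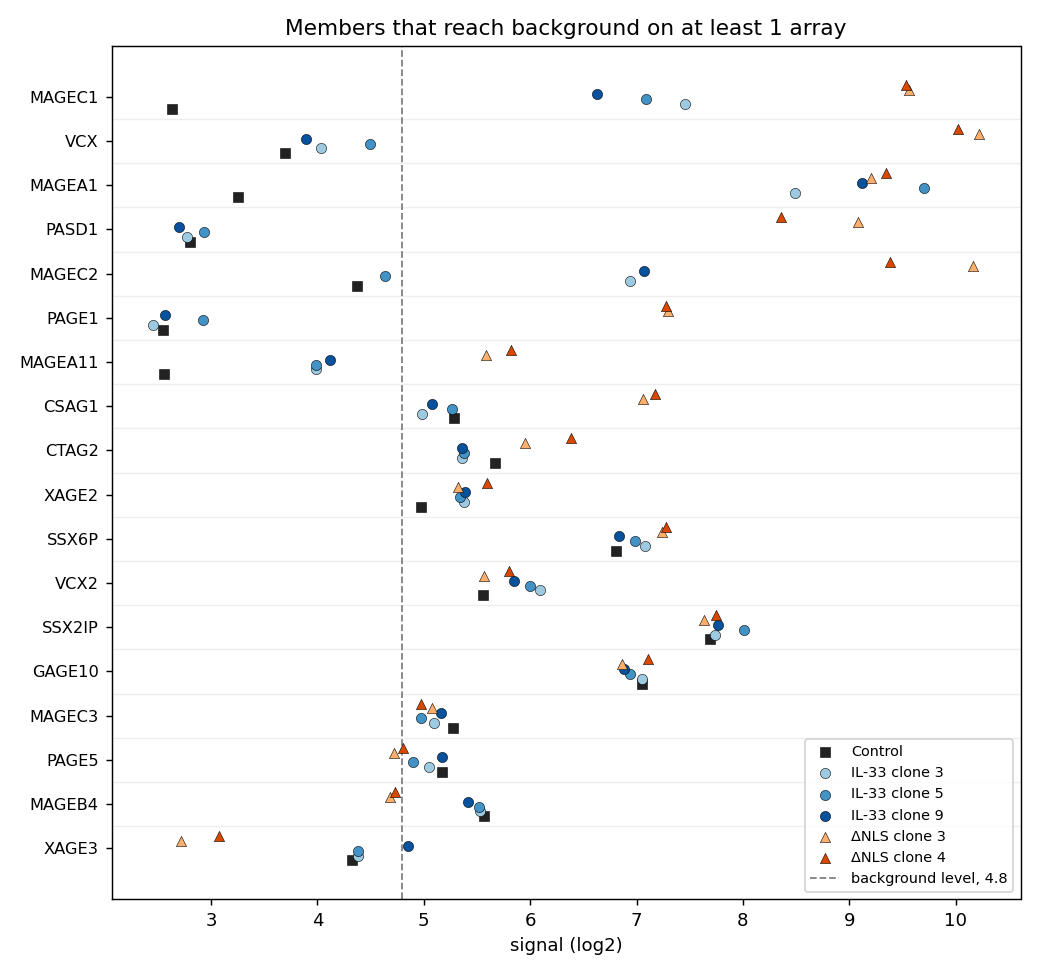
Signal (log2) of each of the 18 members that reached background on at least 1 array; each mark is 1 array, and the dashed line is the background level of 4.8. PAGE1, PASD1 and VCX lie left of the line in the control and all IL-33 clones and at 7.28 or more in the ΔNLS clones, whereas MAGEA1 and MAGEC1 lie far right of it in all 5 clones.

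MAGEA1, the first human tumor antigen gene found through T cells, was below background in the control and bright in all 5 clones. Its signal was 3.26 in the control, 8.49, 9.71 and 9.12 in the 3 IL-33 clones, and 9.21 and 9.34 in the 2 ΔNLS clones. The IL-33 mean exceeded control by 5.84 ± 0.43 (log2 ± SE; limma adjusted p = 0.00438) and the ΔNLS mean by 6.02 ± 0.45 (adjusted p = 0.0014). Since the control gave background, the increase is a lower bound: at least 19.7-fold in IL-33 and at least 22.2-fold in ΔNLS, taking the control at 4.8. Between the constructs the values overlapped, and the difference of IL-33 from ΔNLS was −0.17 ± 0.34 (limma adjusted p = 0.70). MAGEA1 had 1 probe set, and signal from related MAGEA genes in it was not tested.

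MAGEC1, which codes for a large repeat-rich MAGE protein also called CT7, was likewise below background in the control and above it in all clones, and higher in ΔNLS than in IL-33. The signal was 2.63 in the control, 7.46, 7.09 and 6.63 in the 3 IL-33 clones, and 9.56 and 9.53 in the 2 ΔNLS clones. No value of one construct fell within the range of the other. The increase over control was at least 4.78-fold in IL-33 (adjusted p = 0.00366) and at least 26.8-fold in ΔNLS (adjusted p = 0.000762). The IL-33 clones lay 2.49 ± 0.24 (log2) below the ΔNLS clones, a 5.61-fold difference (adjusted p = 0.00141). The other 2 probe sets of MAGEC1 also placed every IL-33 clone between the control and every ΔNLS clone.

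MAGEC2, whose protein binds the ubiquitin ligase TRIM28, varied between IL-33 clones. The control gave 4.37, IL-33 clones 3 and 9 gave 6.94 and 7.07, and IL-33 clone 5 stayed at background with 4.64. The ΔNLS clones were at 10.16 and 9.39. The ΔNLS increase over control was 5.401 ± 1.03 (adjusted p = 0.0118), at least 31.4-fold, and ΔNLS lay 11.8-fold above IL-33 (−3.56 ± 0.77 for IL-33 minus ΔNLS, adjusted p = 0.0131). The difference of IL-33 from control, 1.84 ± 0.97, did not pass (adjusted p = 0.30), and without IL-33 clone 5 it was 2.63 (adjusted p = 0.0202). The call of ΔNLS against control was lost without ΔNLS clone 3 (adjusted p = 0.11) or clone 4 (adjusted p = 0.0858), and so was that against IL-33 (0.155 and 0.109); the remaining ΔNLS clone was then assumed to vary like the IL-33 clones. The third MAGEC gene, MAGEC3, lay at 4.97 to 5.27 on all 6 arrays, and no comparison of its brightest probe set passed.

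MAGEA11, a coregulator of the androgen receptor, was above background in the ΔNLS clones alone. The control gave 2.56, the IL-33 clones gave 3.99, 3.99 and 4.12, all below background, and the ΔNLS clones gave 5.59 and 5.82. ΔNLS exceeded control by 3.14 ± 0.14 (adjusted p = 0.000703; at least 1.87-fold, with the control at 4.8). The IL-33 difference of 1.47 ± 0.13 passed (adjusted p = 0.00716), but it lay between values below background, where the array does not measure a level, and was 0 with values under background set to it. ΔNLS was also at least 1.87-fold above IL-33 (adjusted p = 0.000749). The calls of MAGEA1, MAGEC1 and MAGEA11 in IL-33 against control were each lost without ΔNLS clone 3, without ΔNLS clone 4 and when only the IL-33 and control arrays were fitted, with adjusted p from 0.0908 to 0.103.

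PAGE1, PASD1 and VCX were bright in the ΔNLS clones and at background in the control and in every IL-33 clone. PAGE1, of the small acidic PAGE proteins related to GAGE, gave 2.55 in the control, 2.45, 2.93 and 2.57 in the 3 IL-33 clones, and 7.29 and 7.28 in the 2 ΔNLS clones. PASD1, a PAS domain protein that inhibits the circadian CLOCK:BMAL1 complex, gave 2.80 in the control, 2.78, 2.94 and 2.70 in the IL-33 clones, and 9.08 and 8.36 in the ΔNLS clones, in the same order. VCX, a member of a small basic protein family of male germ cells, gave 3.69 in the control, 4.03, 4.49 and 3.89 in the IL-33 clones, and 10.22 and 10.02 in the ΔNLS clones. In all 3 genes both ΔNLS clones were above every other array, and the other 4 arrays were below background.

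Over control, ΔNLS was at least 5.59-fold higher for PAGE1 (adjusted p = 0.00065), at least 15.1-fold for PASD1 (adjusted p = 0.000782) and at least 40.01-fold for VCX (adjusted p = 0.00065). The differences of IL-33 from control were 0.10 ± 0.19, 0.00 ± 0.28 and 0.45 ± 0.25, each between values at background (adjusted p of 0.82, 1.0 and 0.32). The direct test of ΔNLS against IL-33 passed for all 3, with the same adjusted p of 0.000323. With the IL-33 clones at background, the bounds are those against control: at least 5.59-fold, 15.1-fold and 40.01-fold. A second VCX probe set gave 2.81 in the control, 3.05, 3.03 and 3.06 with IL-33, and 6.41 and 6.19 in the ΔNLS clones. VCX has near-identical copies, and signal from them in its probe sets was not tested. Nor was signal from related genes tested in the probe sets of the other members.

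CSAG1, a small gene that shares its promoter region with MAGEA12, was measured in the control already. It gave 5.29 in the control, 4.99, 5.27 and 5.08 in the 3 IL-33 clones, and 7.06 and 7.18 in the 2 ΔNLS clones. It was 3.57-fold higher in ΔNLS than in control (1.83 ± 0.15, adjusted p = 0.00176) and 4.02-fold higher than in IL-33 (adjusted p = 0.000673). The 300-base windows of CSAG1 and MAGEA12, on opposite strands, overlap by 135 bases. MAGEA12 gave 2.11 in the control, 1.72 to 2.04 in IL-33, and 4.57 and 4.42 in ΔNLS, all below background (2.38 above control, adjusted p = 0.00117). CTAG2, which codes for LAGE-1, the close relative of NY-ESO-1, gave 5.67 in the control, 5.36, 5.38 and 5.36 in the IL-33 clones, and 5.95 and 6.38 in the ΔNLS clones. Its difference of IL-33 from ΔNLS passed (−0.80 ± 0.14, adjusted p = 0.00703), that of ΔNLS from control did not (0.50 ± 0.19, adjusted p = 0.085). A second CTAG2 probe set gave 1.13 (log2) for ΔNLS over control, and the remaining 1 was below background on all arrays. With the mean of its probe sets, quantile normalization or equal array medians, ΔNLS against control passed for CTAG2 (adjusted p of 0.00634, 0.0434 and 0.035).

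**Figure D2:**
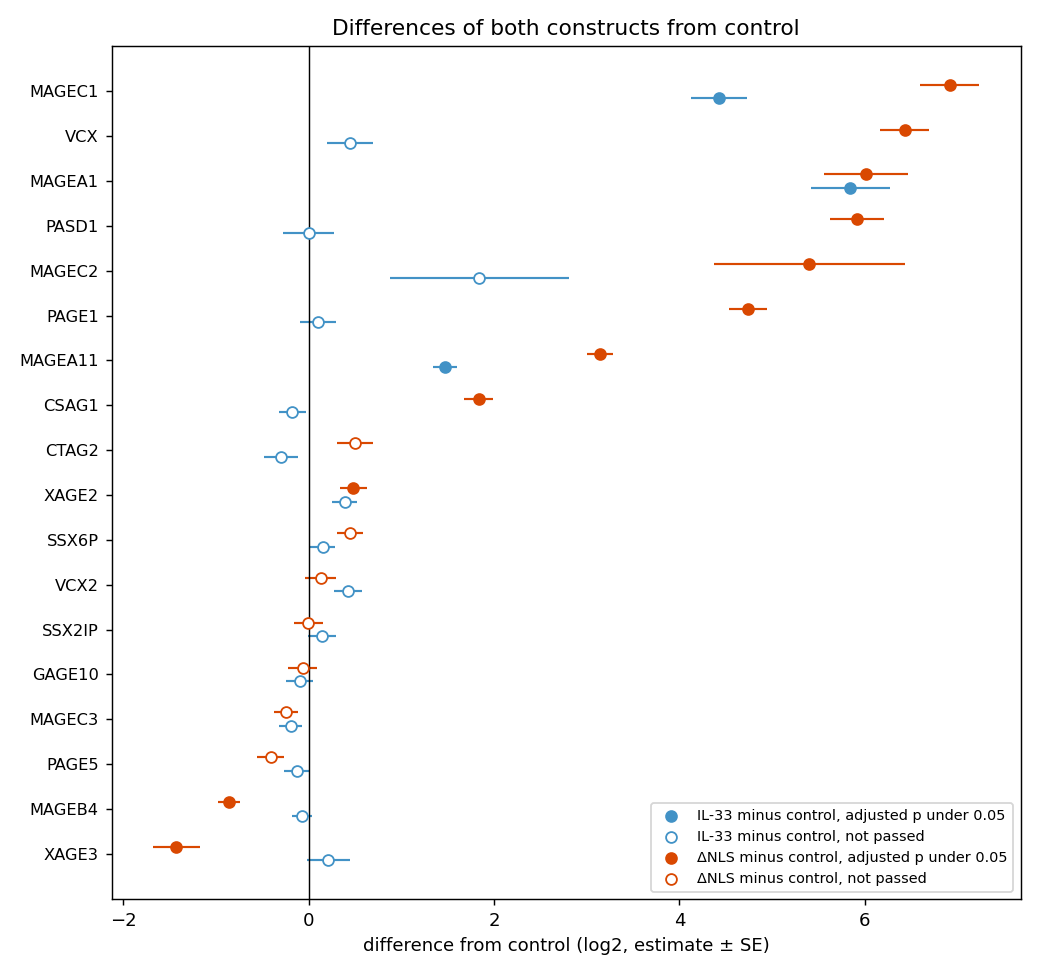
Difference from control (log2) of the 18 members that reached background on at least 1 array, as the limma estimate with its standard error, for IL-33 (blue) and ΔNLS (orange); filled marks passed an adjusted p of 0.05. Both rows of marks share the 1 control array. VCX, PASD1 and PAGE1 have an orange mark at 4.74 or more and a blue mark within 0.45 of 0, and MAGEA1 has both marks near 6.

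Besides MAGEC3, described above, 5 of the members that were above background in the control passed no comparison. GAGE10 was at 6.87 to 7.11, SSX6P, a pseudogene of the SSX transcriptional repressors, at 6.81 to 7.28, and SSX2IP at 7.63 to 8.01 over all 6 arrays. VCX2 was at 5.55 in the control, 5.84 to 6.09 in IL-33 and 5.56 to 5.80 in ΔNLS, and PAGE5 at 5.17, 4.90 to 5.17 and 4.72 to 4.804. None of these 5 passed in any of the 3 comparisons (smallest adjusted p = 0.0554, for SSX6P in ΔNLS against control, 0.45 ± 0.14). With equal array medians that difference of SSX6P was 0.63 and passed (adjusted p = 0.0194), as it did with quantile normalization (0.034). A second SSX6P probe set, below background on all arrays, gave −0.23 for ΔNLS against control. The small differences of SSX2IP and GAGE10 between ΔNLS and control (−0.00 and −0.07) turned positive when array medians were set equal (0.18 and 0.12). XAGE2 gave 4.98 in the control, 5.34 to 5.39 in IL-33, and 5.32 and 5.598 in ΔNLS. Its ΔNLS difference of 0.48 ± 0.15 had an adjusted p of 0.0467 and was lost without any 1 of the IL-33 clones (0.0622 to 0.0822) or without ΔNLS clone 4 (0.054), and a second XAGE2 probe set, below background on all arrays, gave −0.37.

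Lower signals in ΔNLS were found for 2 of the members that reached background. MAGEB4 gave 5.56 in the control, 5.53, 5.52 and 5.42 in the IL-33 clones, and 4.68 and 4.73 in the ΔNLS clones, which is at least 1.70-fold lower than control (−0.86 ± 0.12, adjusted p = 0.00459). A second MAGEB4 probe set stayed at 2.10 to 2.25 on all arrays. XAGE3, a placenta-expressed XAGE gene, gave 4.33 in the control, 4.38, 4.38 and 4.85 in the IL-33 clones, and 2.72 and 3.08 in the ΔNLS clones. Its difference of −1.43 ± 0.25 from control (adjusted p = 0.00947) lay between values below background, and the call was lost without ΔNLS clone 3 (0.0776) or clone 4 (0.0532). The ΔNLS arrays also had the lower 95th percentile of olfactory receptor genes, 4.602 and 4.61 against 4.89 to 4.99 on the other arrays, and its part in these 2 calls was not tested.

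Counted over all 44 members, limma called 3 higher (6.8%) and 0 lower in IL-33 against control, where 7.64% of all genes were called (3.64% higher, 4.0% lower). At an unadjusted p under 0.05 there were 6 members, all higher. The share of all genes under that p was not counted, here or for the gene lists below. ΔNLS against control called 15 higher (34.1%) and 6 lower (13.6%), against 14.8% and 23.5% of all genes. Of these, 6 of the higher and 5 of the lower lay between values below background in both groups. The share of members called in either direction, 47.7%, stood beside 38.3% of all genes. With array medians set equal the members' counts were 18 higher and 5 lower, and with quantile normalization 18 and 3. The calls over all genes shifted too. They were 2680 higher and 4266 lower as deposited, 4241 and 2822 with equal medians, and 3615 and 2985 with quantile normalization. IL-33 against ΔNLS called 8 members higher (18.2%; 31.4% of all genes) and 13 lower (29.5%; 16.1%). The median difference over the members was 0.04, 0.10 and −0.04 in the 3 comparisons, beside 0.04, −0.09 and 0.13 over all genes. The comparisons with control share the control array.

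Among the 26 members that stayed below background limma called 0 in IL-33 against control (1 at an unadjusted p under 0.05), 10 (38.5%) in ΔNLS against control and 11 (42.3%) in IL-33 against ΔNLS, where of the 5630 genes below background on all arrays 2.01%, 32.8% and 46.5% were called. Increases out of background were counted next. Only genes below background in the control can enter the counts against control. On that array 22.7% of members and 64.5% of all genes were above background. More of the members than of all genes could therefore show such a rise, and the shares below do not allow for this. In ΔNLS, 6 members (13.6%) were at least 2-fold higher than a control below background, a state that 0.783% of all genes had: MAGEA1, MAGEC1, MAGEC2, PAGE1, PASD1 and VCX. In IL-33 there were 3 (6.8%; 0.386% of all genes), MAGEA1, MAGEC1 and MAGEC2, the last without passing the test. In ΔNLS over IL-33 there were 3 (6.8%; 0.276% of all genes), PAGE1, PASD1 and VCX, and in IL-33 over ΔNLS there were 0 (0.408% of all genes). No member fell by that much from control into background, a change that 0.215% of all genes made in IL-33 and 0.844% in ΔNLS. Only GAGE10 (7.05), SSX6P (6.81) and SSX2IP (7.69) had a control signal at least 2-fold above background. The other members could not show such a fall, so this count cannot be set against the shares of all genes.

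The CpG counts of the windows were compared with all promoters. Of the 44 members 36 had a window in the RefSeq table. The 8 members that were called higher in ΔNLS, reached background and had a window (CSAG1, MAGEA11, MAGEC1, MAGEC2, PAGE1, PASD1, VCX and XAGE2) held 10 to 21 CpGs (median 13.5), and the 20 X-linked members that stayed below background held 1 to 21 (median 7.0). Over all 27305 windows the median was 13.0, with quartiles of 3.0 and 28.0. Of the windows shown, SSX5 and MAGEA12 (9 each), MAGEC2 (10) and PASD1 (11) lay below the median of all windows. PAGE1 (13) lay at it, and MAGEC1 (14) and VCX (16) above it. All of them lay between the quartiles. The bright genes held 10 to 16, and SSX5 and MAGEA12, picked after their values were seen, held 9 each. MAGEA12 was itself called higher in ΔNLS than in control, though below background. Whether the count goes with expression was not tested. The SP1 motif GGGCGG, on either strand, was in 4 of the 8 windows (43.8% of all windows) and the E-box CACGTG in 1 of 8 (7.3% of all). The ETS motif CCGGAA was in 0 of 8 (17.5% of all), and none of the 36 held the CRE motif TGACGTCA (1.9% of all). The last base of CACGTG and the first of GGGCGG are the same, so that the motifs can overlap by 1 base. The arrays do not measure methylation.

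Neighbors on chromosome X were examined as the nearest tested non-member on each side of every X-linked member, 35 genes in all. In IL-33 against control 3 of them were called higher and 0 lower (4 lower at an unadjusted p under 0.05; 8.6% called, beside 7.3% of the 633 X-linked genes outside the families): LDOC1 (at least 8.7-fold, with the control at 4.8), SLITRK2 (at least 12.3-fold) and MAGEH1 (1.08 ± 0.18). These 3 calls were lost without ΔNLS clone 3, without ΔNLS clone 4 and with only the IL-33 and control arrays fitted (adjusted p from 0.103 to 0.13). LDOC1, a retrotransposon-derived gene beside the MAGEC cluster, gave 3.40 in the control, 7.57, 8.52 and 7.68 in the 3 IL-33 clones, and 9.24 and 9.29 in the 2 ΔNLS clones. SLITRK2, a synaptic adhesion gene, gave 2.82 in the control, 8.08, 9.42 and 7.76 in the IL-33 clones, and 8.65 and 8.55 in the ΔNLS clones. Both lie in the part of the chromosome that holds MAGEC1, MAGEC2 and MAGEA1, and both were below background in the control and above it in all clones, as MAGEC1 and MAGEA1 were.

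In ΔNLS against control 9 flanking genes were called higher and 5 lower, 14 of 35, beside 37.3% of the other X-linked genes. The higher were LDOC1, SLITRK2, MAGEH1, TMEM185A, GABRQ, MAMLD1, IL1RAPL1, VMA21 and UBE2NL (0.54 to 5.87), and the lower PPP1R3F, SLITRK4, CNGA2, FAM47B and DCAF8L2 (−1.28 to −0.44). Of these, IL1RAPL1, UBE2NL, PPP1R3F, SLITRK4, FAM47B and DCAF8L2 were below background in all arrays of both groups, so that 4 of the 5 lower calls lay between values that the array does not measure. CNGA2, at 5.17 in the control and 4.604 and 4.62 in ΔNLS, was at least 1.29-fold lower. LDOC1 and SLITRK2 were at least 22.1-fold and 13.9-fold higher in ΔNLS than in control. VMA21, next to PASD1, gave 9.60 in the control, 9.77, 9.91 and 9.87 with IL-33, and 10.16 and 10.14 with ΔNLS. The other X-linked genes above background, 361 in number, had medians of 0.12 in IL-33 and 0.11 in ΔNLS against control.

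**Figure D3:**
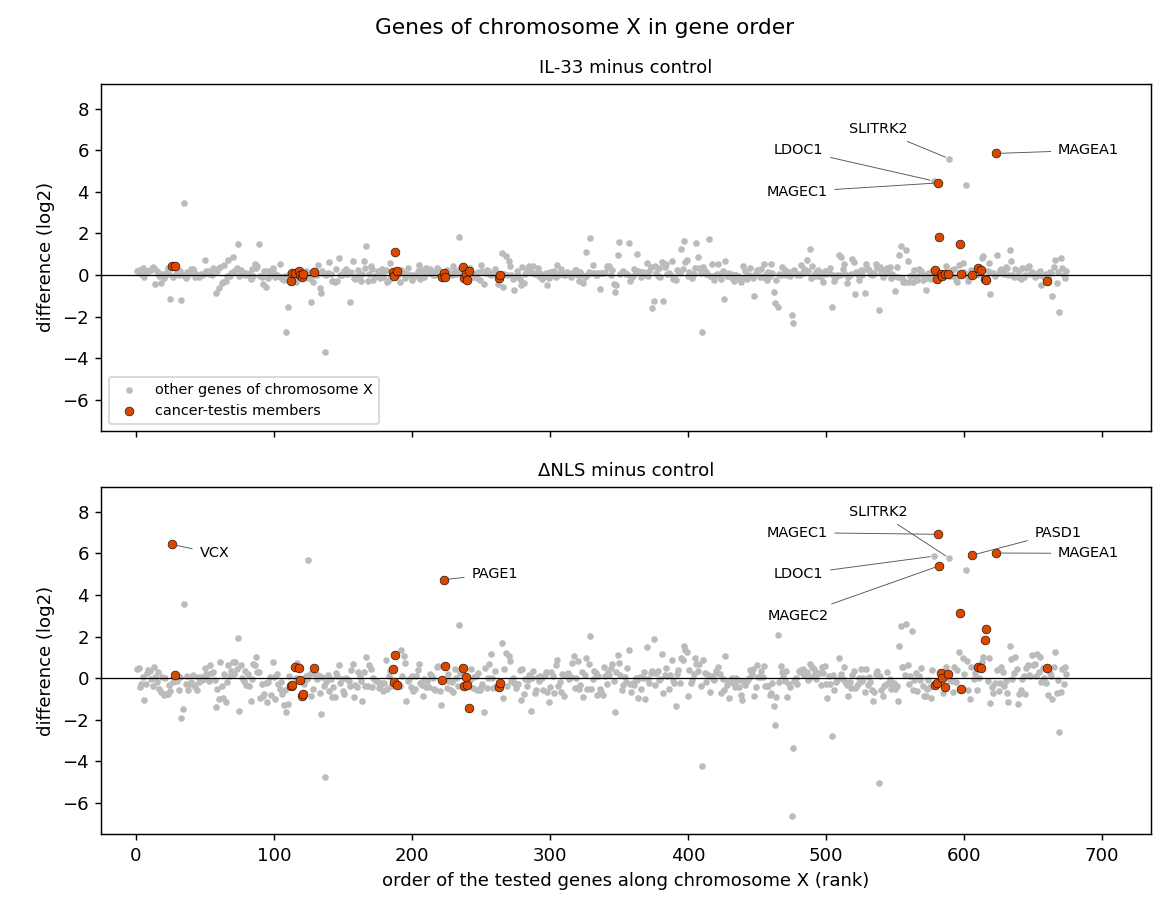
Difference from control (log2) of each tested gene of chromosome X, in gene order, for IL-33 (upper panel) and ΔNLS (lower panel); orange marks are cancer-testis members and gray marks all other genes. In the upper panel MAGEC1, MAGEA1, LDOC1 and SLITRK2 stand at 4.43 or more near the right end, and in the lower panel VCX and PAGE1 at 6.43 and 4.74 add marks far from there. Gray marks lie as high: DMD, far from the right end (5.68 in the lower panel), and MTMR1, near the MAGEA genes (4.31 and 5.22), both named after their values were seen.

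Of 19 further X-linked cancer-testis genes outside these families 18 were measured. In IL-33 against control limma called 0, with 5 at an unadjusted p under 0.05. In ΔNLS against control 3 were higher (CT55, SAGE1 and TEX13B) and 3 lower (ZCCHC13, FMR1NB and TEX13A), 16.7% each beside 14.8% and 23.5% of all genes. CT55 gave 3.61 in the control, 4.17, 4.82 and 5.42 in the 3 IL-33 clones, and 6.16 and 6.27 in the ΔNLS clones, at least 2.66-fold over control (adjusted p = 0.00962). SAGE1, TEX13B, FMR1NB and TEX13A were below background on all arrays, and ZCCHC13 fell from 4.86 to 3.93 and 4.19.

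Of 52 other germ-cell genes, mostly autosomal, 50 were measured. In IL-33 against control 0 were called by limma, with 6 at an unadjusted p under 0.05. In ΔNLS against control 5 of the 50 were higher and 8 lower, where 14.8% and 23.5% of all genes were called, and 1 and 3 of them reached background. CABYR, a calcium-binding protein of the sperm tail, was the higher one (5.27 in the control, 5.98 and 6.05 in ΔNLS). PRM1, LIN28B, a repressor of let-7 maturation, and CTCFL, the testis paralog of CTCF, were the lower ones. With their ΔNLS signals below background, the falls from control were at least 1.03-fold, 1.14-fold and 1.49-fold in that order. The part of the lower olfactory percentile of the ΔNLS arrays in these calls was not tested. CTCFL gave 5.37 in the control, 5.2996 to 5.36 in IL-33, and 4.56 and 4.52 in ΔNLS. LIN28B gave 4.99 in the control, 4.66 to 4.72 in IL-33, and 3.37 and 3.35 in ΔNLS. The median difference of the list was 0.04 in IL-33 and −0.06 in ΔNLS.

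The MAGE genes that somatic tissues also express were measured for 10 of 12. In IL-33 against control 2 were higher and 0 lower: NDN (adjusted p = 0.0235; at least 1.13-fold, since 2 of the 3 clones and the control were below background) and MAGEH1 (1.08, adjusted p = 0.029). Both calls were lost without either ΔNLS clone and with only these groups fitted (adjusted p from 0.13 to 0.133). In ΔNLS 4 were higher and 0 lower: NDN, MAGEH1, MAGED2 and, below background, MAGEL2. NDN, which codes for necdin, an imprinted MAGE protein of neurons, gave 2.70 in the control, 4.78, 4.62 and 5.54 in the 3 IL-33 clones, and 8.07 and 7.98 in the 2 ΔNLS clones. It was at least 9.34-fold higher in ΔNLS than in control (adjusted p = 0.00125). MAGED2, which codes for a ubiquitous MAGE protein, gave 8.73 in the control, 8.49, 9.08 and 8.57 in the IL-33 clones, and 9.88 and 9.91 in the ΔNLS clones (1.17 ± 0.25 above control, adjusted p = 0.0168).

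Factors that are known to silence germ-cell promoters or to maintain or remove DNA methylation were measured for 47 of 49. In IL-33 against control 3 were higher and 3 lower, 6.4% each beside 3.64% and 4.0% of all genes. The higher were MBD2, a reader of methylated DNA (0.92 ± 0.15), TFDP1, the partner of E2F factors (0.79 ± 0.12), and MPHOSPH8, a HUSH complex subunit (0.70 ± 0.15). The lower were CBX5, which codes for heterochromatin protein HP1α (−1.58 ± 0.21), TET3, a 5-methylcytosine oxidase (−0.79 ± 0.17), and TET1, below background. All 6 calls were lost without ΔNLS clone 3, without ΔNLS clone 4 and with only the IL-33 and control arrays fitted (adjusted p from 0.107 to 0.128). CBX5 gave 10.13 in the control, 8.84, 8.50 and 8.31 in the 3 IL-33 clones, and 8.304 and 8.24 in the ΔNLS clones.

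In ΔNLS against control 4 of these factors were higher (8.5%) and 10 lower (21.3%), shares under the 14.8% and 23.5% of all genes. The higher were EHMT1, a histone H3K9 methyltransferase (0.96 ± 0.13), KDM1A, TFDP1 and HDAC1. The 4 lower with the smallest p were CBX5 (−1.85 ± 0.22), CBX3, which codes for HP1γ (−0.77 ± 0.11), EZH2, the H3K27 methyltransferase of Polycomb complex PRC2 (−1.23 ± 0.19), and KDM5B, an H3K4 demethylase (−1.27 ± 0.27). EZH2 gave 8.96 in the control, 8.65, 8.36 and 8.65 in the IL-33 clones, and 7.86 and 7.60 in the ΔNLS clones. The median of the list was 0.13 in IL-33 and −0.15 in ΔNLS. Whether these factors bear on the cancer-testis genes was not tested.

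Probe sets that several gene copies share gave signals of their own, which cannot be assigned to 1 gene and were left out of the counts. Those of SPANXB1 carry its symbol alone, but the annotation lists it under more than 1 entry. They were left out with the shared ones, so no count of members holds SPANXB1. Of 42 such probe sets of these families, 14 were below background in the control and above it in at least 1 clone. The probe set of MAGEA3 and MAGEA6 gave 2.20 in the control, 8.78, 9.71 and 9.19 in the 3 IL-33 clones, and 10.13 and 10.26 in the 2 ΔNLS clones. That of GAGE1, GAGE13 and GAGE2A gave 2.21 in the control, 8.14, 8.95 and 5.72 in the IL-33 clones, and 10.23 and 10.04 in the ΔNLS clones. These 2 were above background in all clones, as MAGEA1 and MAGEC1 were.

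The CT45, CT47 and shared VCX probe sets were above background in both ΔNLS clones and below it elsewhere, as PASD1, PAGE1 and VCX were. The probe set of CT45A5 and CT45A10 gave 2.58 in the control, 3.49, 2.68 and 2.48 in the IL-33 clones, and 9.78 and 9.66 in the ΔNLS clones. The broadest CT47 probe set, shared by 13 symbols, gave 2.77 in the control, 3.51, 3.87 and 2.93 in the IL-33 clones, and 7.68 and 7.05 in the ΔNLS clones. SPANXB1, a sperm nucleus gene that 2 entries of the annotation share, differed from all of these: its brightest probe set gave 4.63 in the control, 5.84, 7.86 and 5.38 in the 3 IL-33 clones, and 4.8004 and 5.21 in the ΔNLS clones, with IL-33 clone 5 the highest.

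**Figure D4:**
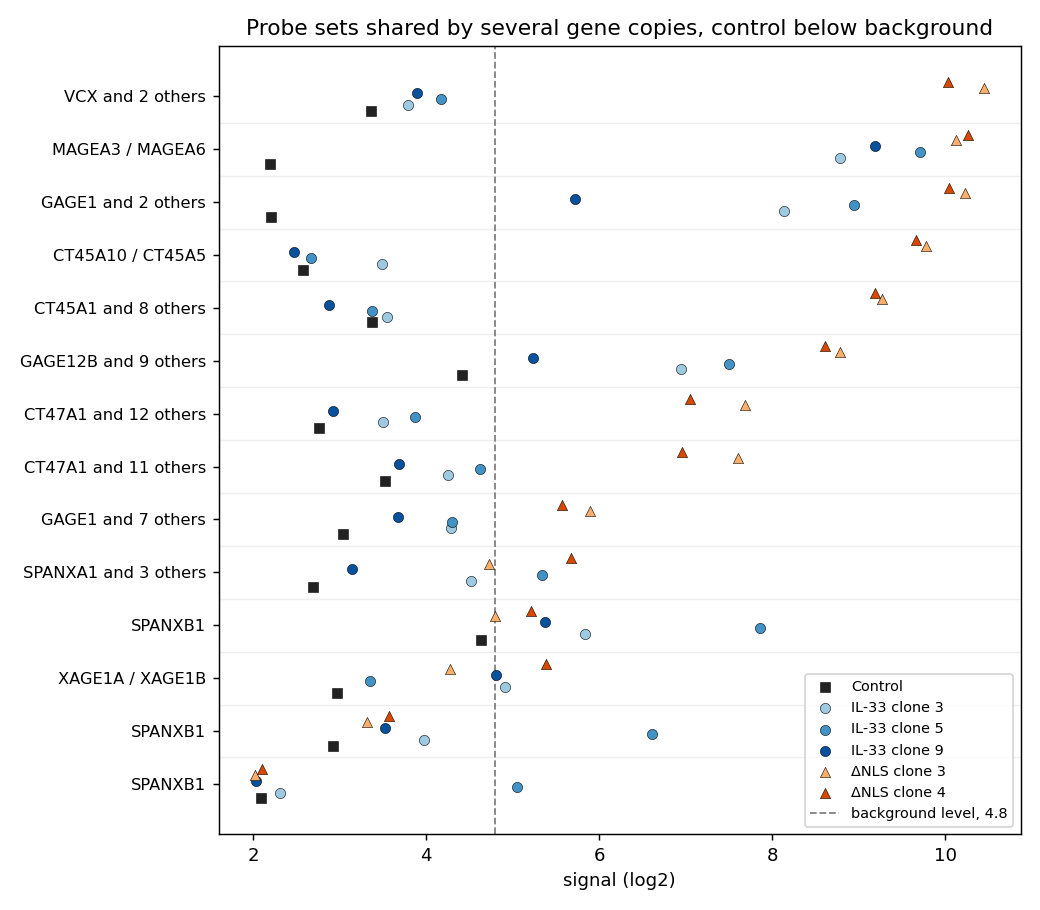
Signal (log2) of the 14 probe sets shared by several gene copies, or for SPANXB1 by several annotation entries. All were below background (dashed line, 4.8) in the control and above it in at least 1 clone. Each mark is 1 array. The MAGEA3 and MAGEA6 probe set lies above 8.7 in all clones, the CT45 probe sets lie above 9.1 in the ΔNLS clones and below the line elsewhere, and the 3 SPANXB1 probe sets are highest in IL-33 clone 5.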

How the data were processed

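Total RNA of stable U87 transfectants was labelled by 3′ in vitro transcription and hybridised to 6 PrimeView arrays. The deposited log2 values were made by the authors, 1 per probe set and array, with Partek 6.0 (named in the submitters' processing notes). How background was corrected, how arrays were normalized and the log base are not given in the sources used here, and base 2 was taken from the range of the values. The same value was listed for 4.17% to 6.79% of genes on any pair of control and IL-33 arrays, for 0.88% on the pair of ΔNLS arrays, and for at most 0.01% between these sets. Arrays have no read depth, and their number limits the precision.

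Of 49395 probe sets 44994 had 1 symbol, 1832 several and 2569 none. Per gene the probe set with the highest mean was used (11735 genes had several). The test was that of limma 3.58.1 under R 4.3.3, two-sided, with 3 group means over all 6 arrays (3 residual and 2.81 prior degrees of freedom), an eBayes trend, and Benjamini-Hochberg adjustment over 18132 genes at 0.05. The study's methods name a count test at 2-fold and a false discovery rate of 0.01, which array signals do not allow; limma was used instead. The test was tested on simulated data. The signal of a group below 4.8 was set to 4.8 for lower bounds of folds.

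Members that reached 4.8 on at least 1 array are named, and of each other gene list up to 4 per direction by p. The germ-cell list is an exception: of its called genes only those that reached 4.8 are named. SSX5 and MAGEA12 were named after their values were seen, as were the shared probe sets. The families and the lists were chosen with earlier results of these data known; within a family the name alone decided. Promoters came from a RefSeq table of GRCh38.p14 that keeps 1 start per gene. The alternatives were the arrays in the fit, leaving out each clone, the model of the spread, the probe sets, values under background, between-array scaling, the threshold and the background level.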

Additional observations from a re-analysis of the deposited data

Results flagged for a closer look

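Signals outside the comparisons came from 14 probe sets shared by several gene copies, or for SPANXB1 by several annotation entries. In these the control was below background and at least 1 clone above it. They were chosen by these values, and none was tested. The highest signal over the clones was 10.4 for the probe set of VCX, VCX3A and VCX3B, 10.3 for that of MAGEA3 and MAGEA6, and 10.2 for that of GAGE1, GAGE13 and GAGE2A, each in a ΔNLS clone. The CT45 probe sets reached 9.78 (CT45A5 and CT45A10) and 9.27 (9 symbols), and the CT47 probe sets 7.68 (13 symbols) and 7.60 (12 symbols), again in ΔNLS clones. Of the other GAGE probe sets, that of 10 symbols reached 8.79 and that of 8 symbols 5.89. The probe set of SPANXA1, SPANXA2, SPANXC and SPANXD reached 5.68 and that of XAGE1A and XAGE1B 5.39, both in ΔNLS clone 4. The 3 probe sets of SPANXB1 reached 7.86, 6.61 and 5.05, all in IL-33 clone 5.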

How the results depend on the processing

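Of 702 single differences (54 differences of the 18 named members under 13 settings) 638 kept their direction and side of the threshold, 28 lost and 15 gained a call, 21 uncalled ones changed sign, and 0 calls reversed. The counts of called members depended more on the setting; the causes were not tested beyond what a setting's construction shows. The 3 members higher in IL-33 than in control became 1 with values under background set to it and 0 with only these groups fitted (6 at an unadjusted p under 0.05; smallest adjusted p of all genes 0.0666), and ranged from 0 to 4 as each clone was left out, with 0 without ΔNLS clone 3 or clone 4 and 4 without IL-33 clone 5. The 0 lower stayed 0. The 15 higher in ΔNLS than in control became 7 with values set to background and 8 at the methods' threshold (11 to 14 as each clone was left out). The 6 lower became 1, 2 over genes above background, 3 with quantile normalization and 1 at the methods' threshold (4 to 7). For IL-33 against ΔNLS the 8 higher became 1, 2 over genes above background and 1 at the methods' threshold (7 to 10), and the 13 lower became 7, 8 and 7 (11 to 13). At a background level of 5.5 the control had 6 members above it and the IL-33 clones had 8, 7 and 7, with 13 and 14 in ΔNLS; at each array's own olfactory percentile the counts were 10 in the control, 13, 10 and 13 in IL-33, and 17 in each ΔNLS clone. With a gene's probe sets averaged, MAGEC3 in IL-33 against ΔNLS (0.44, adjusted p = 0.0123) and PAGE5 in both ΔNLS comparisons passed. MAGEC1 lost its IL-33 call with values set to background (adjusted p = 0.0632), as did MAGEC2 its ΔNLS call (adjusted p = 0.0664). No paired analysis was possible because the constructs share 1 clone number, which marks no common origin.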
